A study of Mus musculus with 18 samples.

Results

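The packaging difference between astrocytes and neurons asks, gene by gene, whether an mRNA is richer in small extracellular vesicles (sEVs) relative to its source cells in one cell type than in the other. It was the log2 difference between astrocyte sEVs and astrocyte cells minus the same difference in neurons, so a positive value means relatively more in astrocyte sEVs. The genes were chosen by their cell levels: they are those with a mean normalized count of at least 100 over the 3 cell libraries in both types, 11228 of the 54307 genes in the deposited table. All 11228 were among the 19612 genes that passed the filter on low values and were tested. The cell threshold alone was met by 11720 genes in astrocytes and 13042 in neurons. Just inside it lay Ada (lower cell mean 100.2), Icam1 (100.2) and Kctd9 (100.3), with packaging differences of -1.61, 5.04 and -3.13. Just outside lay Arhgef39 (99.998), Hdx (99.8) and Lrrc23 (99.8), with -1.28, 2.80 and -3.71. The cell means chose the genes and also enter the packaging difference, so cell levels are given as a description.

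The study prepared sEVs from primary mouse brain cultures of astrocytes, microglia and neurons and sequenced poly(A) RNA from the sEVs and from their source cells. Of the 6 groups, 4 carry the comparison, cells and sEVs of primary astrocyte cultures and cells and sEVs of primary neuron cultures, with 3 libraries each, 12 of the 18 libraries. The labels give no strain, age, genotype, treatment or culture time, and they do not say whether replicates are separate cultures, so p-values measure only the spread between these samples. The 12 libraries had totals of 36947428 to 54012400 normalized counts.

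sEVs are membrane-bound particles that form inside endosomes or at the cell surface and carry protein and RNA out of the cell. An mRNA can reach them because it is abundant in the cytoplasm near the site of budding, or because RNA-binding proteins sort it there. Membrane and secreted proteins are translated at the endoplasmic reticulum, whereas ribosomal proteins and most mitochondrial proteins are translated on free ribosomes.

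Defining markers followed the labels but were not exclusive. The summed normalized count of 25 astrocyte marker genes was 2315320 to 3423252 in astrocyte cells and 445594 to 506120 in neuron cells, and 640859 to 935753 and 174076 to 262168 in the sEVs. For 32 neuron marker genes it was 48841 to 54307 in astrocyte cells and 557159 to 650422 in neuron cells, and 32644 to 53157 and 247918 to 341687 in the sEVs. The neuron cultures thus held astrocyte marker RNA, and 12 oligodendrocyte lineage markers summed to 276898 to 495538 in astrocyte cells and 37348 to 110278 in neuron cells. The 20 microglia markers summed to 3198 to 6362 in astrocyte cells and 3021 to 3246 in neuron cells, and 3 and 9 of them stood at 0 in all 3 libraries. In such bulk samples fewer cells of a type and less RNA per cell cannot be told apart, and the part of other cells in the packaging difference was not tested. Replicate spread was uneven: the median SD of a gene on the log2 scale was 0.65 in astrocyte sEVs, 0.35 in neuron sEVs, 0.26 in astrocyte cells and 0.27 in neuron cells.

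The sEV effects of the cell types followed each other across most genes, and the packaging difference is the remainder. Across the 11228 genes the astrocyte and neuron effects had a Pearson r of 0.784, a description over genes, which share libraries and are not replicates. In astrocytes 1209 genes were called higher in sEVs (10.8%, against 8.0% of all genes tested) and 2106 lower (18.8%, against 18.6%). In neurons 1562 were called higher (13.9%, against 11.1%) and 1935 lower (17.2%, against 18.9%). Calls are those with an adjusted p under 0.05 in limma (Benjamini-Hochberg). The difference between the effects was called in 424 genes (3.78%, against 5.09% of all genes tested), 155 higher in astrocytes (1.38%, against 2.47%) and 269 lower (2.4%, against 2.63%). The median packaging difference was -0.25 over these genes and over all genes tested. With all libraries scaled to the same total the median became -0.12, and the split of calls became 180 higher and 171 lower (51.3% higher, against 36.6%). With a trend over GC content removed, an alternative chosen after seeing the data, it was 70 and 246 (22.2% higher). With the cell and sEV library of each number paired, which the labels do not settle, it was 83 and 117. Without astrocyte cell replicate 1 the higher calls numbered 97, and without neuron cell replicates 1, 2 or 3 they numbered 95, 83 and 103. The lower calls numbered 449 without astrocyte sEV replicate 3, and 166 and 175 without neuron cell replicates 1 and 3. A set of 227 genes was called in all 12 fits that each left out one library, 73 higher and 154 lower.

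**Figure D1:**
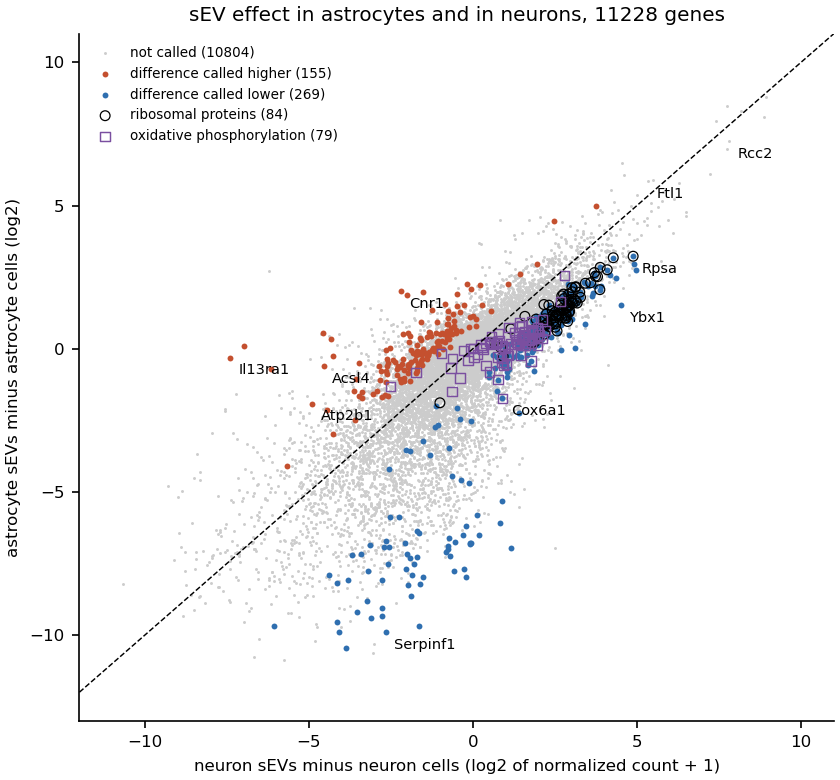
Log2 difference between sEVs and cells in neurons (horizontal) and astrocytes (vertical) for 11228 genes, one point each. Red and blue points are the 155 and 269 genes whose packaging difference was called higher or lower, open circles are 84 ribosomal protein genes, open squares 79 nuclear oxidative phosphorylation genes, and the dashed line marks equal effects. The ribosomal protein genes lie below the line, and Ftl1 and Rcc2, among the genes most enriched in sEVs of both types, lie near it.

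What called genes did in each type differed by direction. Of the 155 genes called higher in the packaging difference, 78 were called lower in sEVs in neurons only, 39 lower in both types, 21 higher in astrocytes only, 6 higher in both, 10 moved in opposite directions and 1 was called in neither. Of the 269 called lower, 110 were called higher in sEVs of both types, 77 higher in neurons only, 39 lower in astrocytes only, 37 lower in both, 5 moved in opposite directions and 1 was called in neither. Higher calls were thus mostly genes with a stronger loss from neuron sEVs, and lower calls mostly genes with a stronger gain in neuron sEVs. Among the genes most enriched in sEVs of both types, some were not called. Ftl1, the ferritin light chain, had 4991032, 11547426 and 5743832 normalized counts in astrocyte sEVs and 5575237, 8197079 and 6664127 in neuron sEVs. Ftl1 had 105662 to 151798 in astrocyte cells and 144290 to 185264 in neuron cells. Those ranges of the sEVs overlap, and its packaging difference of 0.52 ± 0.35 (SE, here and below) was not called (adjusted p = 0.549). Rcc2, a chromatin-associated regulator of mitosis, rose by 7.25 in astrocyte and 7.82 in neuron sEVs, with a packaging difference of -0.58 ± 0.48 (adjusted p = 0.669). A missing call does not show equal effects, since in simulated data 0% of 100 genes shifted by 1 log2 unit were called.

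The mRNAs of the cytosolic ribosome were the clearest group. Ribosomal protein mRNAs rose in sEVs of both cell types and rose further in neurons: of 84 genes, 73 were called higher in astrocyte sEVs, 82 in neuron sEVs and 0 lower in either. Their median effect was 1.28 in astrocytes and 2.71 in neurons. The packaging difference was negative for all 84, from -1.95 for Rpl29 to -0.33 for Rpl7l1, with a median of -1.35 against -0.25 over the 11228 genes. It was called lower for 65 of 84 and higher for 0, where 2.4% of the 11228 genes were called lower. Both subunits took part, with 38 of 49 large subunit genes (median -1.34) and 25 of 33 small subunit genes (median -1.37).

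Rpsa, a small subunit protein, had 4013, 4781 and 3483 normalized counts in astrocyte cells and 43415, 34766 and 36526 in astrocyte sEVs. In neurons it had 10410, 11017 and 13347 in cells and 388641, 298240 and 339572 in sEVs. Neuron sEVs lay above astrocyte sEVs in every library, by more than the neuron cells lay above the astrocyte cells, and the packaging difference was -1.65 ± 0.19 (adjusted p = 7.34e-05). Rplp0, of the ribosomal stalk, had 24498, 27416 and 21307 in astrocyte cells and 135631, 140404 and 145054 in the sEVs, and 30045, 30205 and 32716 in neuron cells and 435693, 410275 and 392365 in the sEVs. Its cell levels were close in both types while the sEV levels did not overlap, and the difference was -1.20 ± 0.13 (adjusted p = 3.54e-05). Rps7 differed by -1.36 ± 0.14 (adjusted p = 3.13e-05). Members that stayed uncalled include Rpl22l1, the paralog of Rpl22, at -0.45 ± 0.41 (adjusted p = 0.704). Near-identical gene copies exist for Rpsa, Rplp0 and Rps7, so the counting could have split their reads, and Rplp0 lost its call with quantile normalization.

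Ribosomal protein mRNAs usually start with a C followed by a run of pyrimidines, the 5′ terminal oligopyrimidine tract, through which the cell regulates their translation. The starts of 3 such genes, chosen among those with the tract, and of 3 V-ATPase or chaperone genes called higher are shown as examples. The latter 3 lack the tract. Atp6v1e1 (adjusted p = 0.0101 in limma) is not among those with the smallest p, since Hspa8 (8.37e-05) and Atp6v1b2 (0.000541) lie below it. The choice of genes fixed which starts hold the tract, so the display is no comparison of the groups. Each is a window of 30 bases around the RefSeq start in GRCm38.p6, 12 bases before it and 18 from it, and capitals mark the tract, a C with at least 6 C or T after it whose C lies within 10 bases of the start.
Rpl7a, chr2:26910795-26910824, plus strand: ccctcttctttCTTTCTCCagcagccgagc
Rps18, chr17:33955648-33955677, minus strand: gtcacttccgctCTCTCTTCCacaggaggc
Rpl18, chr7:45718059-45718088, plus strand: gtctcgcaggccgCTCTTTCCCCgcccact
Dnaja1, chr4:40722456-40722485, plus strand: gcggcgaggggcgggacttccggcaagtga
Dnajb6, chr5:29735886-29735915, plus strand: tccgacgcgcacggaggctgctgcgcacgt
Atp6v1e1, chr6:120822681-120822710, minus strand: ggacctcccagggttttcgtctcaggtttg
Searched on the transcribed strand only, such a tract stood in 12.2% of the 32851 windows of the table, in 15.3% of the 8768 matched genes (78.1% of 11228) and in 30 of 62 matched ribosomal protein genes (48.4%). Outside the ribosomal protein and oxidative phosphorylation lists, genes with the tract had a median packaging difference of -0.17 and those without it -0.24. Within the ribosomal protein list the 30 genes with the tract had a median of -1.35 and the 32 without it -1.23, with 22 and 23 called lower. A match describes letters in the window and is not evidence of a regulated site.

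Other genes of the translation machinery were called in both directions. Of 57 translation factors 6 were called lower (10.5%, against 2.4% of the 11228 genes) and 2 higher (3.51%, against 1.38%). The lower genes were the elongation factor subunits Eef1b2 (-1.64 ± 0.22), Eef1g (-1.01 ± 0.14) and Eef1a1 (-0.65 ± 0.13), together with Tpt1 (-1.51 ± 0.26), Eif3h (-0.83) and the poly(A)-binding protein Pabpc1 (-0.80 ± 0.21). Apart from Eif3h, for which only the difference is given, these rose in sEVs of both types. Eef1b2 had 2787, 3784 and 2845 normalized counts in astrocyte cells and 8324, 7056 and 8142 in the sEVs, against 4754, 4609 and 4553 in neuron cells and 39540, 31409 and 39115 in the sEVs. The groups of sEVs did not overlap. The 2 higher genes encode RNA helicases of cap-dependent initiation: Eif4a1 fell by 1.01 in astrocyte and fell by 2.12 in neuron sEVs (difference 1.11 ± 0.23, adjusted p = 0.00893), and Eif4a2 differed by 1.03 ± 0.27 (adjusted p = 0.039; 0.0565 with only the 12 libraries, and the call was lost in 15 settings in all). The call of Pabpc1 was lost in 14 settings, and that of Eef1a1 with equal totals, with median centring and with quantile normalization, where its difference was 0.13. Ubb, a polyubiquitin gene, differed by 1.18 ± 0.23 (adjusted p = 0.00684). Of 78 mitochondrial ribosomal protein genes 6 were called lower (7.69%) and 0 higher, with a median of -0.41, led by Mrpl42 (-1.59 ± 0.22), Mrps15 (-1.59 ± 0.36) and Mrps24 (-1.50 ± 0.29). With libraries centred on their median the calls of Eef1g, Eif4a1, Ubb, Mrps15 and Mrps24 ended. In that setting 0 translation factors were called higher and 4 lower. The call of Mrps15 also ended with equal totals, with the GC trend removed and without neuron cell replicate 1. The count of lower mitochondrial ribosomal protein genes was 2 with equal totals, with median centring and without neuron cell replicate 1, 3 without neuron sEV replicates 1 or 3, and 9 without astrocyte sEV replicate 3.

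Nuclear genes of oxidative phosphorylation were the second large group, and here neurons alone carried most of the gain. Of 79 genes, 12 were called higher in astrocyte sEVs and 58 in neuron sEVs, with median effects of 0.18 and 1.14. The packaging difference was called lower for 35 (44.3%, against 2.4% of the 11228 genes) and higher for 1 (1.27%, against 1.38%), with a median of -1.02. By complex, 21 of 37 genes of complex I, 9 of 11 of complex IV, 3 of 9 of complex III and 2 of 17 of ATP synthase were called lower. Complex II, the succinate dehydrogenase shared with the citric acid cycle, had 0 of 4 lower and Sdha higher.

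Cox6a1, a subunit of cytochrome c oxidase, had 15095, 14176 and 19050 normalized counts in astrocyte cells and 5331, 4108 and 4987 in the sEVs. In neurons it had 27683, 26678 and 31309 in cells and 73163, 40505 and 50452 in sEVs. It thus fell in every astrocyte sEV library and rose in every neuron sEV library (-2.64 ± 0.25, adjusted p = 1.34e-05). Ndufa1, an accessory subunit of complex I, had 3243, 3749 and 4646 in astrocyte cells and 3091, 2293 and 3281 in the sEVs, against 5015, 5875 and 6732 in neuron cells and 23506, 13238 and 25130 in the sEVs. The astrocyte ranges overlap and the neuron ranges do not, and the difference was -2.19 ± 0.34 (adjusted p = 0.00115), a call that ended with the length trend removed. Ndufb8 differed by -1.51 ± 0.22 and Cox5b by -1.46 ± 0.32 (adjusted p = 0.000549 and 0.0126). Sdha ran in the opposite direction, from 24561, 23602 and 29070 to 13732, 14254 and 15047 in astrocytes and from 20507, 23785 and 23602 to 6124, 6960 and 7340 in neurons. It fell in both types and fell further in neurons (0.90 ± 0.15, adjusted p = 0.00181). Of the 15 genes encoded by the mitochondrial genome 13 were called lower in astrocyte and 14 in neuron sEVs. In the packaging difference 0 of them were called either way, where 3.78% of the 11228 genes were. The median of these mitochondrially encoded genes, 0.03, has no settled sign: it was -0.59 without neuron sEV replicate 2, 0.69 without astrocyte sEV replicate 3 and -0.64 with the GC trend removed. The oxidative phosphorylation count of lower calls was 15 with equal totals, 16 with libraries centred on their median, and 23 either without neuron cell replicate 1 or with a transcript length trend removed, while the ribosomal protein count was 41 or more in every setting tried.

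**Figure D2:**
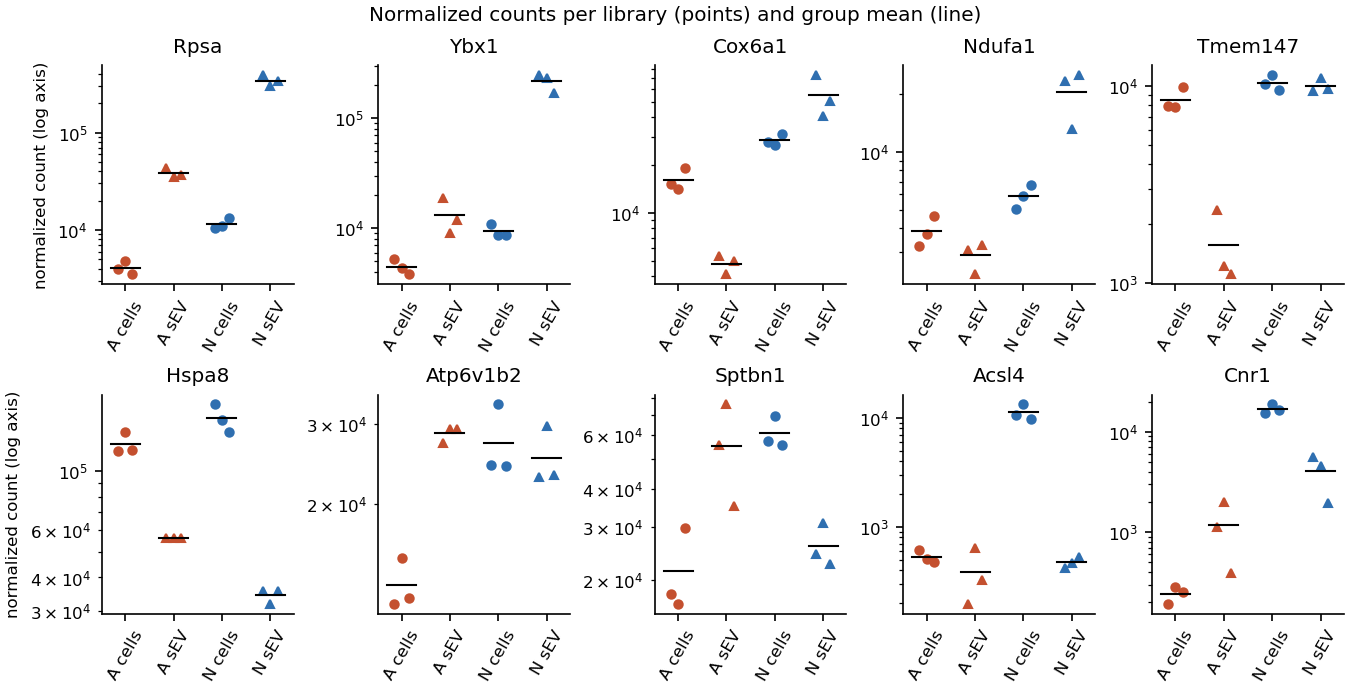
Normalized counts per library on a log axis for 10 genes in astrocyte (A, red) and neuron (N, blue) cells (circles) and sEVs (triangles), with the group mean as a black line. Rpsa and Ybx1 rise in sEVs of both types and further in neurons, Cox6a1 falls in astrocyte and rises in neuron sEVs, and Acsl4 falls in neuron sEVs while its astrocyte ranges overlap.

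Genes of the cell's defence against oxidation showed a smaller share of calls. Of 31 selenoprotein and antioxidant genes 6 were called lower (19.4%, against 2.4% of the 11228 genes) and 0 higher, with a median of -0.62. Among them, Txn2, the mitochondrial thioredoxin, rose by 0.98 in astrocyte and 2.15 in neuron sEVs (-1.17 ± 0.23, adjusted p = 0.007). Gpx1, a glutathione peroxidase, rose by 1.52 in neurons, while its astrocyte effect of 0.35 was not called (-1.17 ± 0.23, adjusted p = 0.00704). Gstm5, a glutathione transferase, had 11642, 11273 and 14487 normalized counts in astrocyte cells and 29796, 30153 and 27141 in the sEVs, and 9707, 10502 and 10538 in neuron cells and 39191, 48550 and 43742 in the sEVs. Both types gained, neurons by more (-0.86 ± 0.18, adjusted p = 0.00903). The list's count was 3 with equal totals and with median centring. The call of Gstm5 ended with the length trend removed, and that of Gpx1 with equal totals, with median centring and with the GC trend removed.

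The groups that went the other way were the cytosolic part of the proton pump and the cytosolic chaperones, and with them some genes of the citric acid cycle list. The V-ATPase acidifies lysosomes, endosomes and synaptic vesicles through a membrane sector (V0) and a cytosolic sector (V1). Of its 18 genes 5 were called higher and 0 lower, against 1.38% higher over the 11228 genes, with a median of 0.84. All 5 belong to the 9 genes of V1, with a median of 1.14 and median effects of 0.40 in astrocytes and -0.79 in neurons. Of the 9 V0 and accessory genes 0 were called. Their median packaging difference was 0.31, and their median effects were -2.46 in astrocytes and -1.50 in neurons. The median difference of a set need not equal the gap between its median effects. Atp6v1b2 had 12049, 15222 and 12430 normalized counts in astrocyte cells and 27293, 29314 and 29199 in the sEVs, and 24362, 33129 and 24267 in neuron cells and 22949, 29665 and 23198 in the sEVs. It rose in every astrocyte sEV library, whereas the neuron ranges overlap (1.22 ± 0.18, adjusted p = 0.000541). Atp6v1c1 (1.39 ± 0.26), Atp6v1e1 (1.14 ± 0.24), Atp6v1a (1.15) and Atp6v1g2 (1.99 ± 0.52) were the others. Atp6v1g2 lost its call in 11 settings, and its exons overlap Nfkbil1 on the other strand. The V-ATPase count fell to 1 with libraries centred on their median and to 2 with the GC trend removed. It fell to 3 without astrocyte cell replicate 2, neuron sEV replicates 1 or 3, or neuron cell replicates 2 or 3.

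Cytosolic chaperones fold and refold soluble proteins, and 5 of 25 were called higher and 0 lower (median 0.51). Hspa8, the constitutive Hsp70, had 118735, 140264 and 119307 normalized counts in astrocyte cells and 56139, 56407 and 56256 in the sEVs. In neurons it had 177086, 155040 and 140113 in cells and 35478, 31918 and 35755 in sEVs, a larger loss (1.03 ± 0.12, adjusted p = 8.37e-05). Hsp90aa1, an Hsp90, fell by 0.55 in astrocyte and fell by 1.96 in neuron sEVs (1.41 ± 0.22, adjusted p = 0.000909). Its partner gene Hsp90ab1 rose by 0.54 in astrocytes and fell by 0.52 in neurons (1.07 ± 0.18, adjusted p = 0.00209), and the Hsp40 genes Dnaja1 and Dnajb6 differed by 1.60 and 1.33. Hspa8 and Hsp90aa1 have near-identical copies in the reference.

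In the citric acid cycle list 5 of 20 genes were called higher and 0 lower (median 0.31). These were Pdhb and Dld of the pyruvate dehydrogenase complex, Idh1, Idh3a and Sucla2. Pdhb and the cytosolic Idh1 act outside the cycle itself, and Sdha, counted above, is not in the list. The list did not move as a whole, with 11 positive and 9 negative differences. Pdhb had 12110, 12967 and 13191 normalized counts in astrocyte cells and 11600, 12293 and 11572 in the sEVs, and 12525, 14924 and 13089 in neuron cells and 4965, 5745 and 5401 in the sEVs. Its astrocyte ranges overlap and only the neuron sEVs lie apart (1.22 ± 0.13, adjusted p = 5.08e-05). Idh1, the cytosolic isocitrate dehydrogenase, differed by 1.11 ± 0.15 and Dld by 1.39 ± 0.22, and both lost the call with the GC trend removed, which left 1 gene of the list called. The count was 3 in 8 of the 12 fits without one library, for every library but astrocyte sEV replicate 2, neuron cell replicate 1 and neuron sEV replicates 1 and 3.

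**Figure D3:**
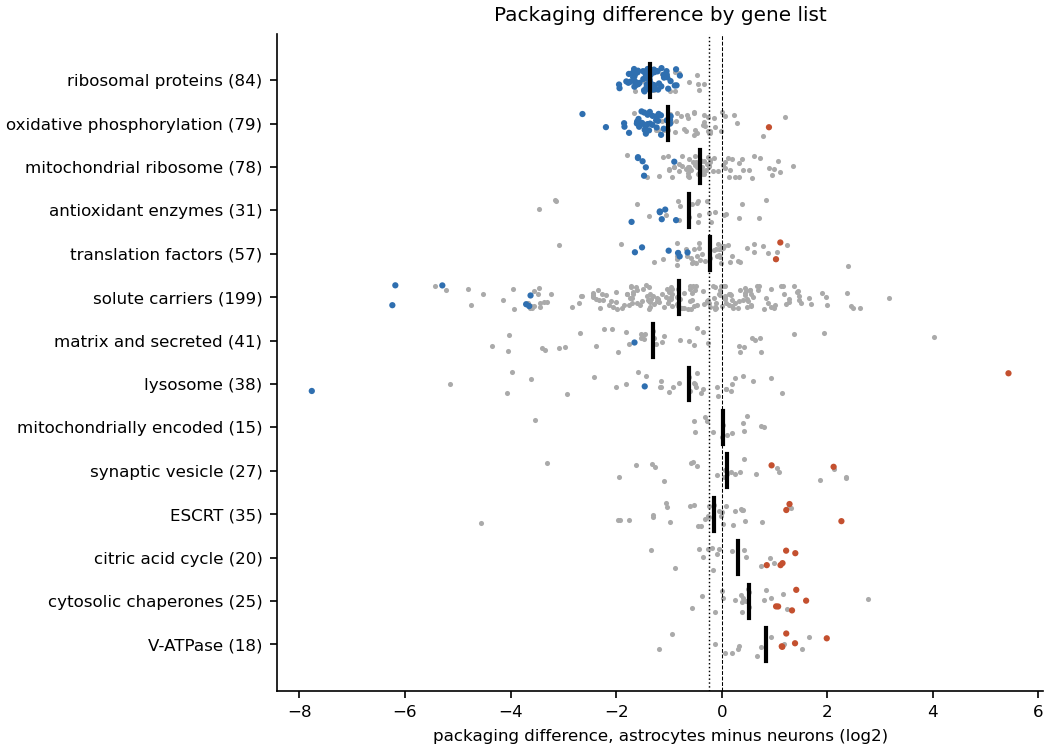
Packaging difference of each gene (points) in 14 gene lists, with the number of genes in brackets, red and blue where called higher or lower, and a black bar at the list median. The dotted line is the median of all 11228 genes (-0.25) and the dashed line is 0. Ribosomal protein genes all lie left of the dotted line, oxidative phosphorylation genes mostly left of it, and V-ATPase and chaperone genes mostly right of it.

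Measured within each library, as the list median minus the median of all 11228 genes, the ribosomal protein genes stood at 1.62 to 1.99 in astrocyte cells and 1.70 to 1.90 in neuron cells, on the log2 scale. In sEVs they stood at 2.67 to 3.37 in astrocytes and 4.53 to 5.13 in neurons. The cells of both types were alike in this measure and the sEVs did not overlap. The oxidative phosphorylation genes stood at most at 2.78 and 2.84 in the cells and at 2.47 to 3.19 and 3.66 to 4.26 in the sEVs. All 3 neuron sEV libraries lay above every cell library, and the astrocyte sEVs overlapped the cells. The cytosolic chaperones stood at 2.94 to 3.46 and 2.80 to 3.31 in the cells and at 2.91 to 3.51 and 2.44 to 2.77 in the sEVs, so that neuron sEVs lay below all other libraries of the 12. The V-ATPase genes stood at 2.88 to 3.15 in astrocyte and 3.09 to 3.52 in neuron cells and at 2.18 to 2.71 and 2.27 to 2.43 in the sEVs. The citric acid cycle genes stood at 2.77 to 2.86 and 2.46 to 2.85 in the cells and at 1.95 to 2.84 and 2.01 to 2.18 in the sEVs. For both of these lists the sEVs of the types overlapped.

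**Figure D4:**
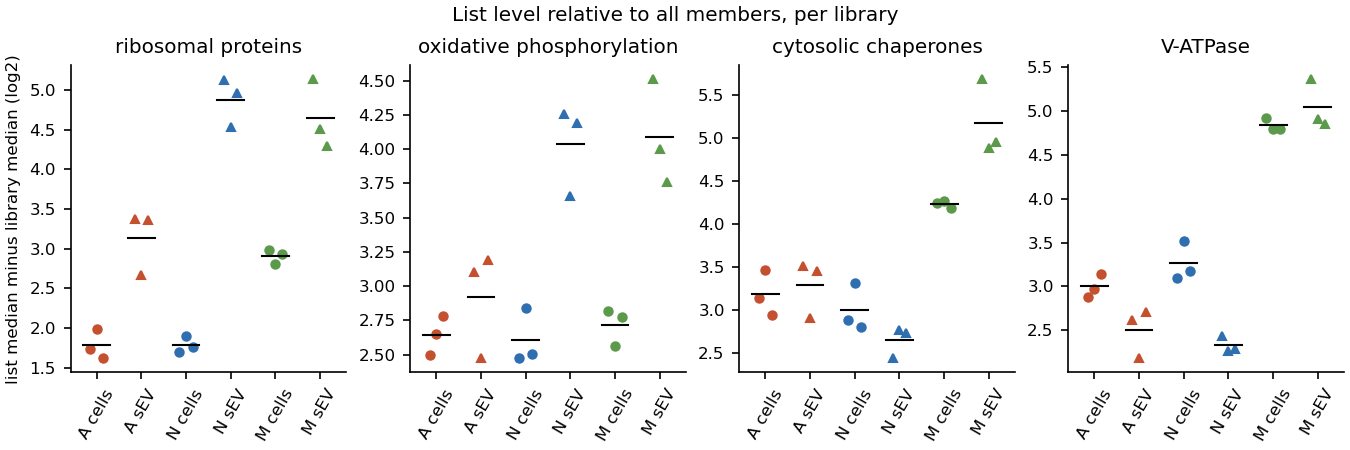
List median minus the median of all 11228 genes in each library (points, log2) for 4 gene lists, in cells (circles) and sEVs (triangles) of astrocytes (A), neurons (N) and microglia (M), with the group mean as a black line. Ribosomal protein genes reach 2.67 to 3.37 in astrocyte sEVs and 4.53 to 5.13 in neuron sEVs.

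The microglia libraries do not enter the log2 value of the packaging difference. They enter its calls through the shared estimate of spread and through the filter on low values, which set the genes tested. The microglia sEV effects stand beside the packaging difference for the main lists. Ribosomal protein genes had a median effect of 1.05 in microglia, 1.28 in astrocytes and 2.71 in neurons, and oxidative phosphorylation genes one of 0.90, 0.18 and 1.14. For the packaging difference of microglia minus neurons, 67 of 84 ribosomal protein genes and 6 of 79 oxidative phosphorylation genes were called lower (15.7% of the 11228 genes and 12.9% of all genes tested were). For that of astrocytes minus microglia, 17 of the 79 were called lower (4.01% and 4.53%), and 19 of the 84 higher (10.7% and 8.77%). These comparisons share libraries with the astrocyte and neuron one. Among genes with a microglia cell mean of at least 100, the microglia effect lay nearer to the astrocyte effect in 121 of 147 genes called higher and in 161 of 228 called lower, against 59.1% of 8659 genes in all.

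The single genes with the largest lower differences, among those above 0 in all 12 libraries and called with each of them left out, covered several functions. Ybx1 encodes an RNA-binding protein of the cold-shock family that has been linked to RNA sorting into vesicles. It had 5253, 4359 and 3793 normalized counts in astrocyte cells and 18839, 9081 and 11800 in the sEVs, and 10837, 8649 and 8650 in neuron cells and 245769, 233249 and 170129 in the sEVs. Every sEV library lay above the cells of its type, and neuron sEVs gained more (-3.01 ± 0.50, adjusted p = 0.00184). It has a near-identical copy, Gm11560. Agpat3, an acyltransferase of phospholipid synthesis, had 9561, 7894 and 9188 in astrocyte cells and 1447, 4395 and 1032 in the sEVs, but 2477, 1799 and 3110 in neuron cells and 4629, 7866 and 7227 in the sEVs. It fell in astrocytes, and the neuron increase of 1.42 was not called (adjusted p = 0.055; difference -3.66 ± 0.74, adjusted p = 0.0083).

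Tmem147, a membrane protein of the endoplasmic reticulum, had 7903, 7780 and 9843 normalized counts in astrocyte cells and 2362, 1216 and 1107 in the sEVs. In neurons it had 10190, 11340 and 9579 in cells and 9462, 11016 and 9618 in sEVs. It fell in astrocytes while the neuron ranges overlap (-2.48 ± 0.34, adjusted p = 0.000355). Ezr, which links the membrane to actin, had an astrocyte effect of -0.06 and rose by 2.70 in neurons (-2.76 ± 0.55, adjusted p = 0.00784). Pals2, a scaffold protein, rose by 2.94 in neurons and had an astrocyte effect of 0.49 that was not called (-2.45 ± 0.48), and Sdccag8, a centrosome protein, rose by 2.60 in neurons with an uncalled 0.56 in astrocytes (-2.04 ± 0.41). The snoRNA host transcript Snhg6 had 669, 911 and 642 in astrocyte cells and 423, 425 and 423 in the sEVs, and 922, 962 and 980 in neuron cells and 3886, 2484 and 4272 in the sEVs. Its astrocyte effect was not called and it rose in neurons (-2.64 ± 0.48, adjusted p = 0.0034). The exons of Snhg6 overlap those of Mcmdc2 on the other strand. Mcmdc2 had 38.4, 15.1 and 6.15 in astrocyte cells and 0 in each of the sEV libraries, and 131, 271 and 65.5 in neuron cells and 0, 58.0 and 0 in the sEVs. Of 13 snoRNA host transcripts 12 had a negative difference and Snhg6 alone was called.

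Of the 10 genes with the largest higher differences under the same conditions, 9 fell in neuron sEVs. Acsl4, which activates arachidonic acid, had 10628, 13208 and 9749 normalized counts in neuron cells and 422, 467 and 529 in neuron sEVs. In astrocytes it had 618, 506 and 476 in cells and 198, 646 and 326 in sEVs. Neurons lost most of it while the astrocyte ranges overlap (3.95 ± 0.54, adjusted p = 0.000366). Atp2b1, a calcium pump of the plasma membrane, had 56029, 69974 and 55573 in neuron cells and 2630, 2155 and 1423 in the sEVs, against 4149, 3816 and 3934 and 895, 2259 and 570 in astrocytes. Both types lost it, neurons by more (2.99 ± 0.54, adjusted p = 0.0034). Cd200, a surface ligand that restrains myeloid cells, had effects of -1.04 in astrocytes and -3.58 in neurons (2.53 ± 0.44, adjusted p = 0.00252).

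Fbxw7, the substrate receptor of a ubiquitin ligase, had 21725, 30008 and 20813 normalized counts in neuron cells and 5622, 5496 and 5169 in the sEVs. The astrocyte values were 1187, 884 and 966 in cells and 698, 3153 and 1367 in sEVs, which overlap (2.66 ± 0.57, adjusted p = 0.0121). Cyria, an inhibitor of Rac1 signalling, fell by 2.64 in neurons, with -0.06 in astrocytes (2.58 ± 0.56), a call that ended with the GC or the length trend removed. Cnnm4, a magnesium transporter, fell by 1.97 in neurons, with an uncalled 0.55 in astrocytes (2.52 ± 0.52). Enc1, an actin-binding protein of the nervous system, differed from these. It rose in every astrocyte sEV library, from 2418, 2991 and 2612 to 9316, 19170 and 12011, and stayed between 13865 and 22950 in neuron cells and sEVs (2.46 ± 0.49, adjusted p = 0.00753).

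A few genes were called higher in sEVs of one type and lower in those of the other. Cnr1, the cannabinoid receptor of neurons, had 193, 281 and 250 normalized counts in astrocyte cells and 1118, 1987 and 394 in the sEVs, and 15260, 18707 and 16509 in neuron cells and 5546, 4589 and 1937 in the sEVs. It gained in each astrocyte sEV library and lost in each neuron one (4.19 ± 0.84, adjusted p = 0.00739). Pcp4l1, a relative of a calmodulin-binding peptide, rose by 1.88 and fell by 2.01 (3.90 ± 0.58, adjusted p = 0.000771). Sptbn1, the spectrin of the membrane skeleton, had 18023, 16685 and 29736 in astrocyte cells and 55627, 75913 and 35126 in the sEVs, against 57714, 69351 and 55854 in neuron cells and 24332, 30746 and 22633 in the sEVs. The groups exchanged places (2.59 ± 0.48, adjusted p = 0.00421). Ywhaz, a 14-3-3 protein, rose by 0.88 in astrocytes and fell by 0.81 in neurons (1.68 ± 0.22, adjusted p = 0.000196).

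The opposite pattern, lower in astrocyte and higher in neuron sEVs, was called for Cox6a1 above and for Ndufa13, Gnai2 and Ilk. Ndufa13, of complex I, fell by 0.60 and rose by 0.92 (-1.52 ± 0.29, not called with the GC trend removed), and Gnai2, a G protein subunit, fell by 0.98 and rose by 1.05 (-2.03 ± 0.45, adjusted p = 0.0152). Ilk, a kinase at integrin adhesions, had 8290, 7472 and 6880 normalized counts in astrocyte cells and 5250, 4648 and 5369 in the sEVs, and 3256, 2708 and 3350 in neuron cells and 8961, 10869 and 9938 in the sEVs (-2.24 ± 0.19, adjusted p = 5.99e-06). Its exons overlap those of Taf10 on the other strand, and Taf10, which is below the cell threshold, had 45 to 78 in astrocyte cells, 1692 to 2741 in astrocyte sEVs, 106 to 180 in neuron cells and 10961 to 11746 in neuron sEVs. Reads within the shared bases of the pair cannot be told apart, since the kit does not mark strand. Ndufa13 overlaps Tssk6, which had at most 56.2 in any of the 12 libraries.

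Some genes were listed at 0 in the sEVs of one type. Of the 11228 genes, 152 were listed at 0 in all 3 astrocyte sEV libraries and 55 in all 3 neuron ones. With values above 0 in all libraries of the other sEVs, these were 63 and 2 genes, of which 32 and 2 were called. Where a group is listed at 0 no fold is given, since the log2 difference then rests on the pseudocount. Fmod, a matrix proteoglycan, had 1426, 796 and 2517 normalized counts in astrocyte cells and 0 in each of the sEV libraries, and 1473, 684 and 1693 in neuron cells and 219, 94.8 and 25.7 in the sEVs. Serpinf1, a secreted factor, had 962, 860 and 1068 in astrocyte cells and 0 in the sEVs, with 948, 989 and 1516 and 226, 97.4 and 254 in neurons. The cell values of both genes overlap between the types while the sEV values do not. Gpc5, a glypican, and Slc7a4, of an amino acid carrier family, were the others named by the rule. Slc7a4 had 598 to 1023 in astrocyte cells and 7496 to 8064 in neuron cells, with 0 and 68.8 to 190 in the sEVs. The calls of Fmod, Gpc5 and Slc7a4 ended with quantile normalization, those of Gpc5 and Slc7a4 also with a pseudocount of 10, and that of Gpc5 also without neuron cell replicate 1 or 3. In the other direction, Il13ra1, a receptor subunit for interleukin 13, had 538, 632 and 475 in astrocyte cells and 668, 331 and 376 in the sEVs, against 78.6, 353 and 173 in neuron cells and 0 in each neuron sEV library.

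Membrane and secreted proteins showed a difference of modest size with few calls. Among 1536 genes whose protein starts with a hydrophobic stretch, as signal peptides do, the median effect was -2.48 in astrocyte and -1.87 in neuron sEVs, and the median packaging difference was -0.61, against -0.19 over 9209 genes without one. Of 199 solute carriers 6 were called lower (3.02%, against 2.4% of the 11228 genes) and 0 higher, with a median of -0.81 that was -0.41 without astrocyte sEV replicate 1. That count was 3 without astrocyte cell replicate 2, any one neuron cell replicate or neuron sEV replicate 1, and 11 without astrocyte sEV replicate 2. Slc6a6, the taurine transporter, had 2699, 2740 and 1804 normalized counts in astrocyte cells and 13.6, 0 and 46.5 in the sEVs, and 14431, 9601 and 11248 in neuron cells and 2041, 1777 and 1340 in the sEVs. Both types lost it, astrocytes by more (-5.29 ± 1.30, adjusted p = 0.0279). One astrocyte sEV library is listed at 0, so that value rests in part on the pseudocount, and the call was lost with only the 12 libraries (adjusted p = 0.0607) and in 8 other settings. Matrix and secreted glial factors had 1 of 41 called, Apoe at -1.66 ± 0.46 (adjusted p = 0.0493, a call lost in 18 settings), with a median of -1.30. The tetraspanins, common surface markers of sEVs, had 0 of 21 called, where 3.78% of the 11228 genes were: Cd63, Cd81 and Cd9 differed by -0.49 ± 0.35, -0.25 ± 0.36 and 0.29 ± 0.58. Of 35 genes of the ESCRT machinery and vesicle budding, 3 were called higher (8.57%, against 1.38% of the 11228 genes) and 0 lower. These were Vps4b, the ATPase that disassembles ESCRT (2.27 ± 0.37), Chmp5 (1.28 ± 0.31) and Sdcbp, which encodes syntenin (1.22 ± 0.22). Chmp5 lost its call in 14 settings, and Sdcbp with median centring and with the GC trend removed, each of which left 1 gene of the list called.

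The packaging difference also moved with how each gene differed between the cells. Among 7988 genes whose cell levels lay within 1 log2 unit between the types the median was -0.22. It was 0.04 for 749 genes more than 2 units lower in astrocytes and -0.99 for 284 genes more than 2 units higher there. Cell levels enter the difference with opposite sign, so this relation is in part built in. Across genes, the sEV difference between the types and the cell difference had a Pearson r of 0.579. Of the cell type markers, 0 of 24 neuron markers and 2 of 25 astrocyte markers (8.0%), Gpc5 and Apoe, were called, where 3.78% of the 11228 genes were. The medians were 0.27 for neuron markers, or -0.23 without astrocyte sEV replicate 2, and -0.94 for astrocyte markers. Gfap, the astrocyte filament protein, had 369385 to 454959 in astrocyte cells, 365533 to 648097 in astrocyte sEVs, 33362 to 42356 in neuron cells and 58029 to 86029 in neuron sEVs, and differed by -0.84 ± 0.84 (adjusted p = 0.75). For genes near 0 in microglia the shared estimate of spread was wide, as for Snap25 (2.35 ± 2.32), and a fit of the 12 libraries alone called 590 of the 11228 genes (5.25%, against 5.33% of 18524 tested).

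Base composition and length varied with the packaging difference. The median fell with the GC content of the transcript, from 0.33 in 649 genes of up to 40% and 0.15 in 2267 genes of 40 to 45% to -0.66 in 1999 genes of 55 to 60% and -1.02 in 366 genes above 60%. The neuron effect rose over these classes, from -1.13 to 0.35 at the ends, while the astrocyte effect was -0.66 and -0.55. Per library, the genes of up to 45% GC stood -0.33 to -0.28 from the median of all 11228 genes in neuron sEVs, 0.02 to 0.24 in neuron cells, 0.09 to 0.31 in astrocyte sEVs and 0.18 to 0.28 in astrocyte cells. All 3 neuron sEV libraries thus lay apart from the other 9. By length, the median was -0.96 in 227 genes of up to 750 bases (22.5% called lower) and -0.56 in 305 genes of 750 to 1000 bases (14.1%), and between -0.27 and -0.06 in the longer classes. Of the 227 shortest, 26 are in the ribosomal protein list and 29 in the oxidative phosphorylation list, and the other 172 had a median of -0.76 with 19 called lower. With the GC trend removed 54 of 84 ribosomal protein genes, 31 of 79 oxidative phosphorylation genes and 5 of 25 chaperones were called in the direction given above, and with the length trend removed 55, 23 and 5 were.

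**Figure D5:**
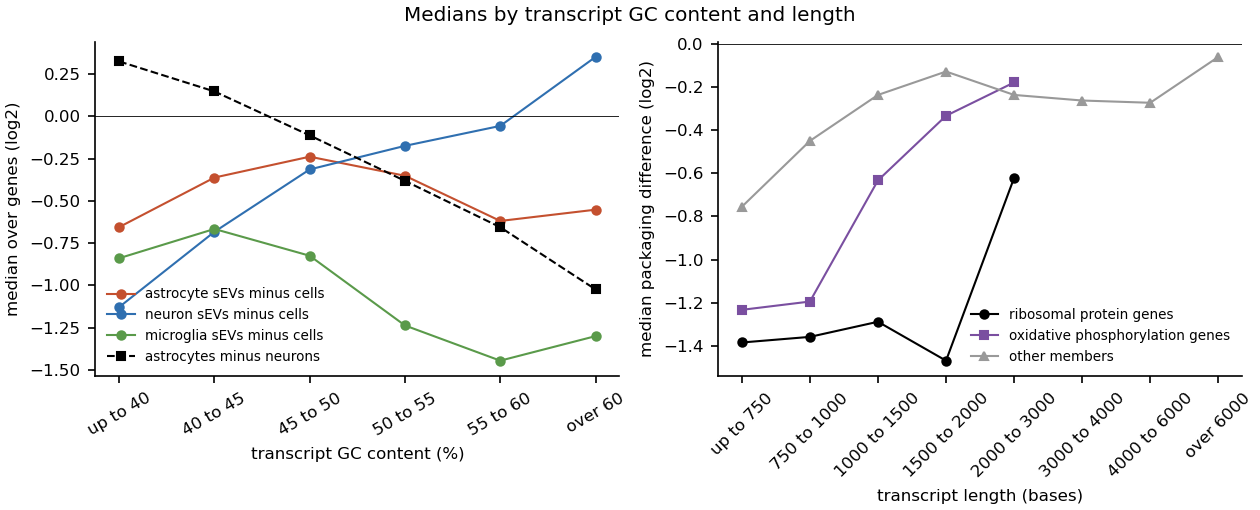
Left, median effect (sEVs minus cells, log2) by class of transcript GC content in astrocytes (red), neurons (blue) and microglia (green), and median packaging difference (black, dashed). Right, median packaging difference by class of transcript length for ribosomal protein genes, oxidative phosphorylation genes and the others, classes of at least 5 genes. The packaging difference goes from 0.33 to -1.02 over the GC classes.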

How the data were processed

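Poly(A) RNA of sEVs and of part of their source cells was read from cDNA primed at poly(A) tails, amplified with 15 PCR cycles and tagmented, per the labels' protocols. The kit does not mark strand. The authors deposited 1 table of 54307 genes with normalized counts (signal values) per library, made with Salmon 1.8.0 on GRCm39 and DESeq2, per the submitters' processing notes. Whole reads could not be recovered from the deposited signal, so no count model was run, the read depth behind a value is unknown, and totals of normalized counts stand in for it.

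Log2 of the normalized count plus 1 was fitted with limma 3.58.1 in R 4.3.3 (lmFit, eBayes with a trend) on all 18 libraries with 6 group means. Tests covered genes that reached 10 in 3 or more libraries and p-values adjusted by Benjamini-Hochberg over all of them. In simulated data for the packaging difference (19612 genes), 0% of 100 genes shifted by 1 log2 unit, 4% of 100 shifted by 2 and 0% of the unchanged genes were called.

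Members and gene lists were chosen with earlier results of these data known. Genes named singly were the 10 largest called differences in each direction above 0 in all 12 libraries and called with each left out, the 4 a direction with the highest cell mean listed at 0 in one type's sEVs, up to 3 called members of a list by smallest p, and the 4 a direction called oppositely in the types, without predicted genes. Atp6v1g2, Atp6v1a, Cox5b, Ndufb8, Dnaja1, Dnajb6, Eif3h, Aqp4, mt-Co1, Eef1a1, Pabpc1, Eif4a1, Eif4a2, Sdha, Idh3a and Sucla2 were chosen after their values were seen. So were Slc6a6, Rpl29, Rpl7l1, Rpl22l1, Ftl1, Rcc2, Cd63, Cd81, Cd9, Gfap, Snap25, Taf10, Tssk6 and Mcmdc2.

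Transcript length, GC content and shared sequence came from GENCODE vM21 (GRCm38, another build than the table's; 99.9% of the genes matched) with blastn 2.17.0 at 95% identity over 300 bases, overlaps from shared exon bases of at least 50. A hydrophobic start is a mean Kyte-Doolittle score of at least 2.5 over 8 residues within the first 35.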

Additional observations from a re-analysis of the deposited data

Results flagged for a closer look

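The sEV effects of astrocytes and neurons differed by the interaction test of limma in 155 genes called higher and 269 called lower. In 8 of them named by rule, the effects were also called in opposite directions. Higher in astrocyte and lower in neuron sEVs were Cnr1 (packaging difference 4.19), Pcp4l1 (3.90), Sptbn1 (2.59) and Ywhaz (1.68). Lower in astrocyte and higher in neuron sEVs were Cox6a1 (-2.64), Ilk (-2.24), Gnai2 (-2.03) and Ndufa13 (-1.52). The exons of Ilk overlap Taf10 on the other strand.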

How the results depend on the processing

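Calls numbered 155 higher and 269 lower. Alternatives that moved a count by over 1.5 times gave 69 higher and 158 lower with libraries centred on their median, 237 higher with only the 12 libraries, 249 higher with library weights, and 171 lower with equal totals. With a GC trend or a length trend removed, both chosen after seeing the data, 70 and 95 were higher. Leaving out one library gave 83 to 213 higher and 166 to 449 lower. Calls higher in sEVs numbered 1209 in astrocytes and 1990 with the 12 libraries, and 1562 in neurons and 2451, 2434 and 2419 with quantile normalization, the 12 libraries and library weights. Calls lower in neuron sEVs numbered 1935, and 3506 with weights. Leaving out one library gave 959 to 1186 and 1537 to 2252 for astrocytes and 1326 to 1616 and 1473 to 2235 for neurons. The cause of these shifts was not tested. Of 3830 recomputed values of 166 results, 3436 stayed on their side of the threshold or within their spread. Of 45 list medians 19 changed sign in at least 1 setting, 18 of them within 0.5 of 0 in the values reported. Among those 18 were neuron markers (0.27, from -0.23 to 1.01 over the settings), mitochondrially encoded genes (0.03, from -0.64 to 0.69), glycolysis (0.09, from -0.18 to 0.23) and heterogeneous nuclear ribonucleoproteins (0.25, from -0.09 to 0.44). The other, protocadherins and cadherins, -0.58, was 0.15 with a pseudocount of 10, 0.57 with quantile normalization and, over the fits without one library, -0.82 to 0.021, the latter without astrocyte sEV replicate 1. Of 101 named called genes, 61 lost the call in at least 1 setting, and Eef1a1 alone of them changed sign (-0.65, or 0.13 with quantile normalization). Of 14 named genes that were not called, 5 changed sign: with quantile normalization Aqp4 (-0.69) was 0.11, Cd81 (-0.25) was 0.14 and mt-Co1 (-0.50) was 0.31, with the length trend removed Rpl22l1 (-0.45) was 0.11, and Cd9 (0.29) was -0.0072 with library weights and -0.042 with the GC trend removed. Leaving out one library gave -0.24 to 0.69 for Cd9 and -1.15 to 0.071 for mt-Co1.

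With a replicate block that pairs the cell and sEV library of one number, 83 genes were called higher and 117 lower, and Cnr1, Cnnm4, Fbxw7, Pals2 and Snhg6 were among the genes no longer called. Lower calls then numbered 46 of 84 ribosomal protein genes and 16 of 79 oxidative phosphorylation genes. The labels do not say whether the numbers pair the samples, and the fit reported treats them as unpaired. Same-number deviations correlated at -0.077 to 0.141, above 0.1 in 1 of 9 pairs. Of 9 cell libraries 5 correlated best with the sEV library of their number. With 3 libraries in a group these correlations cannot settle whether the samples are paired.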

Other observations

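Further lists held few called genes each, with shares above and below the 3.78% of the 11228 genes. The share was 10.2% for spliceosome and SR genes, 7.89% for lysosome genes and 7.41% for synaptic vesicle and fusion genes. For kinesins and dyneins it was 6.25%, for cholesterol synthesis 4.0% and for zinc finger genes 0.847%. Of 48 kinesin and dynein genes 2 were called higher and 1 lower (1.38% and 2.4% of the 11228 genes were). Dync1i2, a dynein intermediate chain, fell by 0.72 in astrocyte and fell by 2.31 in neuron sEVs (1.59 ± 0.20, adjusted p = 0.000186 in limma), with 8318, 9159 and 7224 normalized counts in astrocyte cells and 4323, 4933 and 5720 in the sEVs, and 7283, 6661 and 6600 and 1565, 1363 and 1224 in neurons. Dync1li2, a dynein light intermediate chain, differed by 0.87 ± 0.21 and Dctn3, a dynactin subunit, by -0.77 ± 0.21. Hmgcs1, of cholesterol synthesis, was the 1 gene called of 25 (1.87 ± 0.30). The synaptic fusion factors Nsf (2.12 ± 0.50) and Napa (0.94 ± 0.24) were the 2 called of 27, and Nsf lost its call without any one of the neuron cell replicates, Napa in 14 settings. Of 49 spliceosome and SR genes 3 were called higher, Srsf5 (1.86 ± 0.38) and Srsf7 (1.05 ± 0.26) among them, and 2 lower. Srsf7 lost its call in 10 settings, and the higher count was 1 without astrocyte cell replicates 1 or 3 or neuron cell replicates 1 or 3. Of 38 lysosome genes 1 was called higher, the galactosidase gene Gla (5.43 ± 1.45, adjusted p = 0.0439 in limma), and 2 lower, Npc2, a cholesterol carrier (-1.46 ± 0.26), and Sgsh. Gla was listed at 0 in 1 neuron sEV library, so its value rests in part on the pseudocount. With only the 12 libraries Gla, Dctn3 and Dync1li2 were not called, and they lost the call in 17, 17 and 10 settings in all. Sgsh, a sulfatase, was listed at 0 in all astrocyte sEV libraries and at 96.4, 189 and 113 in neuron sEVs, with 176 to 314 in astrocyte and 114 to 234 in neuron cells. Its exons overlap Card14 on the other strand. Zfp143, a transcription factor, was listed at 0 in all astrocyte sEV libraries and at 310, 81.1 and 214 in neuron sEVs. Of 354 zinc finger genes 1 was called higher and 2 lower.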
